A study of Mus musculus with 2 samples.

Results

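Complement is a set of blood and tissue proteins that tag and lyse targets through a cascade of proteases. A set of 9 complement genes that fibroblasts are known to make was followed in mouse embryonic fibroblasts, connective tissue cells cultured from embryos. They are C1ra, C1s1, C4b, C2, C3, Cfb, Masp1, Cd55 and Cd59a. They were taken by gene symbol, and all 9 were found among the 17260 genes of the deposited count table. The study set cells labelled Ahi1-/- against wild-type (WT) cells, with 1 RNA sequencing library each. Both were C57BL/6, prepared at embryonic day 13.5 and grown in DMEM with 10% serum. Ahi1 encodes a protein of the base of the primary cilium. The sources used here do not say which part of Ahi1 was targeted, the passage or how many embryos each culture came from. The tables head their columns CON and EXP, which were read here as WT and Ahi1-/-, and all directions rest on that reading.

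The classical pathway starts when C1q binds a target and activates the proteases C1r and C1s, which cleave C4 and C2 into a convertase. The lectin pathway reaches the same convertase through MASP proteases, and the alternative pathway builds its own from C3 and factor B. All routes meet at C3, the most abundant complement protein of plasma. Cells shield themselves with surface inhibitors such as CD55, which takes convertases apart, and CD59, which blocks the pore of the terminal complex. The liver makes most plasma complement, while fibroblasts and macrophages make it locally.

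Total expected counts were 20820756 in the Ahi1-/- labelled library and 19067504 in the WT library. Ahi1 itself had 370 counts in the Ahi1-/- labelled library and 410 in WT, or 8.43 TPM in the labelled library and 9.12 in WT (a level corrected for transcript length and depth). The targeted gene therefore did not check the labels, and the library is called by its label, in short the labelled library. With 1 library per genotype there is no replicate check, no test and no p-value. Ratios compare these libraries, and their 95% intervals cover counting error only. Fibroblast markers were present in both libraries, with 9 of 9 detected and a summed level of 19502 TPM in the Ahi1-/- labelled library and 7672 TPM in WT. Of these 9 markers, 7 were 2-fold or more higher in the Ahi1-/- labelled library and 0 lower. The 5 chondrocyte markers summed to 53.98 TPM in the labelled library and 932 in WT, with 4 lower, and the 5 red cell markers to 19.8 TPM in the labelled library and 1312 in WT, with 4 lower. In bulk RNA, fewer cells of a type and less RNA per cell cannot be told apart. The part of these differences in the complement values was not tested.

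The 9 complement genes summed to nearly the same level in both libraries, 225 TPM in the Ahi1-/- labelled library and 224 TPM in WT, but the sum was made up differently. C3, C1s1 and C1ra held 58.7% of it in the Ahi1-/- labelled library and 93.6% in WT. Those 3 genes were lower in the Ahi1-/- labelled library, each by less than 2-fold, while 5 of the others were higher, and C4b had too few counts to tell. By level per length, the order in the Ahi1-/- labelled library was C1ra (52.24 TPM), C1s1 (40.01), C3 (39.93), Masp1 (33.07), Cd55 (28.25), Cd59a (20.5), Cfb (6.26), C2 (4.38) and C4b (0.65). In WT it was C1s1 (70.22 TPM), C3 (70.01), C1ra (69.3), Masp1 (9.48), Cfb (2.26), Cd59a (1.71), C2 (0.49), C4b (0.38) and Cd55 (0.09). Cd55 thus stood last of the 9 in WT and in place 5 in the Ahi1-/- labelled library. No spread over samples exists to say which neighbours in these orders differ.

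**Figure D1:**
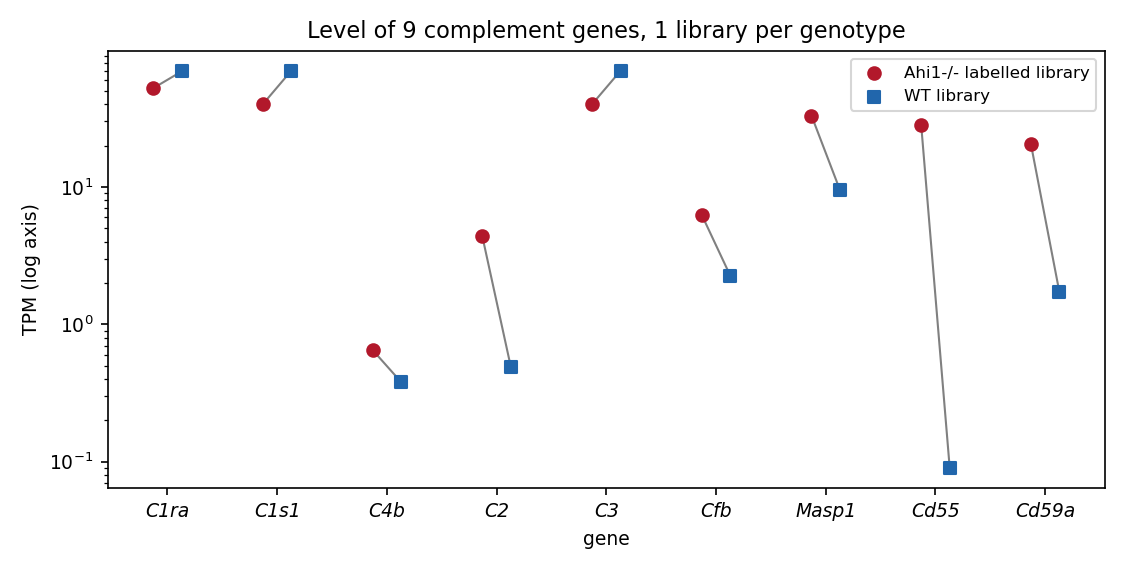
Level of each complement gene in TPM on a log axis, with 1 point per library (circles, Ahi1-/- labelled library; squares, WT) and a grey line joining the points of 1 gene. C1ra, C1s1 and C3 lie between 39.93 and 70.22 TPM in both libraries, while Cd55 spans 28.25 to 0.09 TPM.

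A gene was counted as higher or lower when its TMM-scaled counts were 2-fold or more apart and its larger count was 50 or more. Of the 9 complement genes, 8 reached that minimum, 5 were higher and 0 lower in the Ahi1-/- labelled library, and 3 lay within 2-fold. Among all 12075 genes with the minimum, 16.0% were higher and 10.3% lower. Only 5 of the 9 reached 50 counts in WT. C2, Cd55 and Cd59a passed through their counts in the Ahi1-/- labelled library and so had to differ. For C2 (12 WT counts) and Cd55 (5) this forced 2-fold or more, but not for Cd59a (35). Nothing is read from the count of higher genes. The median log2 ratio over all 9 was 1.35, against -0.01 over the 14485 genes with at least 10 counts over both libraries.

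The serine proteases of the first classical complex were lower in the Ahi1-/- labelled library, each by less than 2-fold. C1s1, which encodes C1s, had 1055 counts in the Ahi1-/- labelled library and 1891 in WT, or 40.01 TPM in the labelled library and 70.22 in WT. Its scaled level was 1.81-fold lower (interval 1.68 to 1.95). C1ra, which encodes C1r, the protease that activates C1s, had 1296 counts in the labelled library and 1761 in WT, or 52.24 TPM in the labelled library and 69.3 in WT, and was 1.37-fold lower (1.28 to 1.47). Both lie on chromosome 6 with C1ra 1 step from C1s1 in the gene order, and they were not lower to the same degree. C1ra over C1s1 was 1.31 by TPM in the Ahi1-/- labelled library and 0.99 in WT. This ratio needs no scaling between libraries, and in counts it was 1.32-fold higher (exact conditional interval 1.19 to 1.47). Together the pair summed to 92.25 TPM in the Ahi1-/- labelled library and 139.52 TPM in WT. In rank among all 17260 genes by TPM, C1s1 stood at 4216 in the Ahi1-/- labelled library and 2486 in WT, and C1ra at 3350 in the labelled library and 2525 in WT.

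C3 was lower, relative to all genes by nearly the same factor as C1s1. This central component had 1624 counts in the Ahi1-/- labelled library and 2960 in WT, or 39.93 TPM in the labelled library and 70.01 in WT, and was 1.84-fold lower (1.73 to 1.95). C3 over C1s1 was close to 1 by TPM in both libraries (0.998 in the labelled library and 0.997 in WT), and the count ratio between libraries was 0.98 (0.89 to 1.08). Of the genes with 50 counts, 12.9% had a lower ratio than C3, 13.5% a lower one than C1s1 and 27.4% a lower one than C1ra. The difference was short of 2-fold for each of these genes. C3 lies on chromosome 17, where the median log2 ratio of 603 genes was -0.32. With that median subtracted, its log2 ratio of -0.88 became -0.56, the largest effect of any setting on it. The same step on chromosome 6 took C1s1 to -0.96, so the likeness to C1s1 does not hold within chromosomes.

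Cfb and C2, the proteases that cleave C3 within the convertases, were higher in the Ahi1-/- labelled library although C3 was lower. Cfb, factor B of the alternative pathway, had 147 counts in the Ahi1-/- labelled library and 57 in WT, or 6.26 TPM in the labelled library and 2.26 in WT. It was 2.56-fold higher (1.87 to 3.53), and the interval reaches below 2-fold. C2, the matching protease of the classical and lectin pathways, had 104 counts in the labelled library and 12 in WT, or 4.38 TPM in the labelled library and 0.49 in WT, and was 8.59-fold higher (4.71 to 17.2). By TPM, C3 exceeded Cfb 6.38-fold in the Ahi1-/- labelled library and 31.0-fold in WT. Relative to Cfb, the counts of C2 were 3.35-fold higher (1.67 to 7.21), so the ratios of the pair differed beyond counting error. That rests on 12 WT counts of C2 and 1 library per genotype. C4b, the other part of the classical convertase, had few counts, with 32 counts in the Ahi1-/- labelled library and 19 in WT, or 0.65 TPM in the labelled library and 0.38 in WT. Its log2 ratio was 0.74 (-0.12 to 1.64), which includes 0, and no difference was detectable at this depth. C2 stood above C4b 6.74-fold by TPM in the Ahi1-/- labelled library and 1.29-fold in WT. In counts this ratio was 5.09-fold higher (2.09 to 12.9). With its close copy C4a added, C4b came to 1.01 TPM in the labelled library and 0.82 in WT. C2 then stood above the sum in the labelled library but below it in WT.

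Masp1 was the lectin pathway protease gene with appreciable counts. It encodes MASP-1 and, by alternative splicing, MASP-3, which counts per gene cannot separate. It had 1172 counts in the Ahi1-/- labelled library and 340 in WT, or 33.07 TPM in the labelled library and 9.48 in WT, and was 3.42-fold higher (3.03 to 3.87). Relative to C1s1, a protease gene of the classical pathway, its counts were 6.18-fold higher (5.35 to 7.14). Masp1 over C1s1 was 0.83 by TPM in the Ahi1-/- labelled library and 0.14 in WT. Masp2, which encodes the lectin protease that cleaves C4, had 3 counts in the labelled library and 2 in WT.

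Both membrane inhibitors were higher in the Ahi1-/- labelled library, and Cd55 had the largest ratio of the 9 under all alternatives run. Cd55, which encodes decay-accelerating factor, had 802 counts in the Ahi1-/- labelled library and 5 in WT, or 28.25 TPM in the labelled library and 0.09 in WT. It was 159-fold higher (67.8 to 491), a ratio above that of 99.6% of genes with 50 counts. Its rank by TPM was 5476 in the Ahi1-/- labelled library and 14782 in WT. Cd59a, which encodes an inhibitor of the membrane attack complex, had 329 counts in the labelled library and 35 in WT, or 20.5 TPM in the labelled library and 1.71 in WT, and was 9.32-fold higher (6.56 to 13.6). Its interval overlaps that of C2, and with chromosome medians subtracted C2 (log2 ratio 3.43) passed Cd59a (3.36). The pair summed to 48.75 TPM in the Ahi1-/- labelled library and 1.8 TPM in WT. Both proteins are held in the membrane by a lipid anchor. Cd55 over C3 was 0.707 by TPM in the Ahi1-/- labelled library and 0.00129 in WT.

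**Figure D2:**
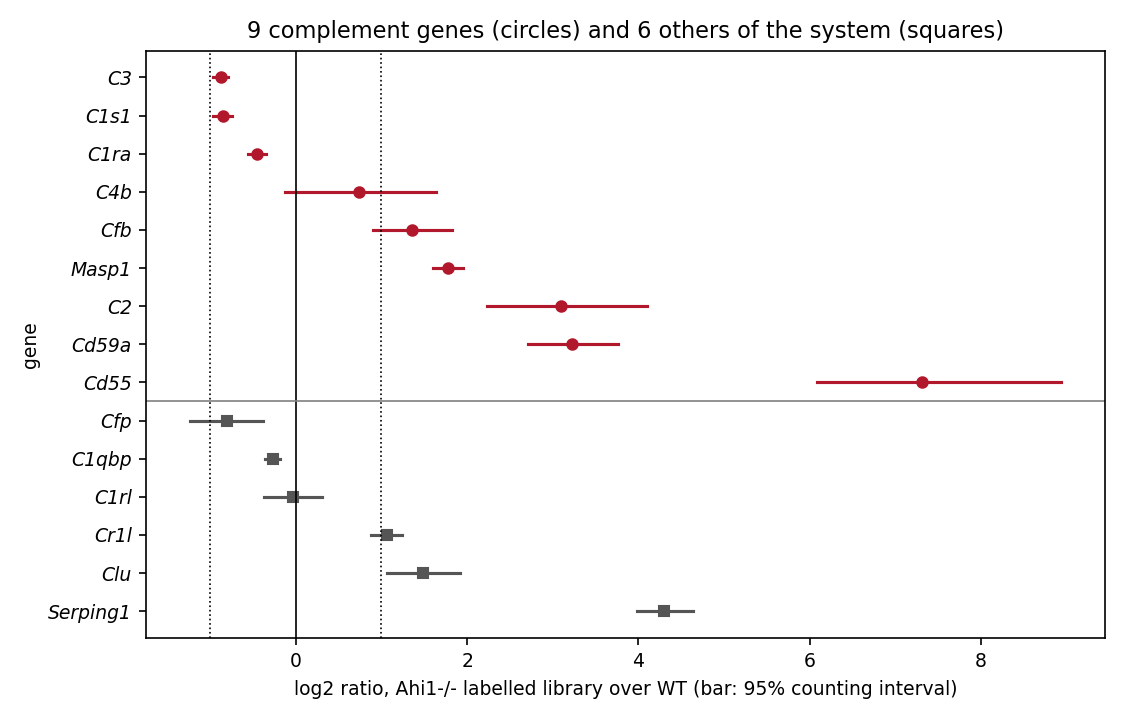
Log2 ratio of scaled counts, Ahi1-/- labelled library over WT, with the 95% counting interval as a bar, for the 9 complement genes (red circles) and the 6 other genes of the system with at least 50 counts (grey squares); dotted lines mark 2-fold. Cd55 at 7.31 and Serping1 at 4.30 lie farthest right, and C3, C1s1 and C1ra lie left of 0.

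Promoter windows of 5 of the 9 genes were found by symbol in the RefSeq table (GRCm38.p6), each running from 250 bases before the start to 50 after it. Those of Cd55, Cd59a and C3 are shown, as the 2 membrane inhibitors that were higher and the component on which all routes meet, which was lower. Letters in capitals mark matches on either strand to 4 motifs. These are TTCNNNGAA (STAT), TTGCNNAA (C/EBP), GAAA and GAAA with any 2 bases between them (interferon response), and GGGA and TTTCC with any base between them (NF-kappaB). No matches of different motifs overlap in these windows. The windows are chr1:130462695-130462994 (minus strand) for Cd55, chr2:104095551-104095850 (plus strand) for Cd59a and chr17:57228087-57228386 (minus strand) for C3.
Cd55: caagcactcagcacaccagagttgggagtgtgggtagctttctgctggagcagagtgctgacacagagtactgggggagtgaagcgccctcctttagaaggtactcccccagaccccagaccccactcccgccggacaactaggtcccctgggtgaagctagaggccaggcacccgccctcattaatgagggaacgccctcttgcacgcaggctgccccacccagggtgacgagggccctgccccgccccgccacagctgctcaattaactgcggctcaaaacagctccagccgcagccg
Cd59a: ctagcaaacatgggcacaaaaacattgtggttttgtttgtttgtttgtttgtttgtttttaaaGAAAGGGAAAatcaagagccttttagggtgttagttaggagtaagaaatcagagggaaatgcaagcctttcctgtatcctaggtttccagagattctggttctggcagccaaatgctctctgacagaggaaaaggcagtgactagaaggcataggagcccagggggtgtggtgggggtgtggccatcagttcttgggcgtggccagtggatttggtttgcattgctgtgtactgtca
C3: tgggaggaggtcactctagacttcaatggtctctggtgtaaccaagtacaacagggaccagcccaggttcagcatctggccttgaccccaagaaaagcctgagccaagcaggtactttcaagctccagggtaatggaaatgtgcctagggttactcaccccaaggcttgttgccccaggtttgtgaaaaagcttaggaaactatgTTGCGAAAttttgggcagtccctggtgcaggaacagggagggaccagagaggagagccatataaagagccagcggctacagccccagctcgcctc
The Cd55 window held no match and 63.3% G and C, against a median of 53% over 32544 distinct windows. In Cd59a, 1 interferon response match lay 187 to 178 bases before the start, a motif found in 3.45% of all windows. The C3 window had 1 C/EBP match 45 to 38 bases before the start, and 10.8% of all windows hold that motif. C1s1, lower like C3, had 1 C/EBP match in 1 of its 2 windows, and C1ra had 1 C/EBP and 1 STAT match after the start. STAT matches occur in 8.33% of all windows and NF-kappaB matches in 0.415%. The matches describe letters and show no binding. The promoters of C4b, C2, Cfb and Masp1 were not used here.

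Other genes of the complement system came from a fixed list of 47, of which 42 were in the table and 6 had at least 50 counts. Of these 6, 3 were higher in the Ahi1-/- labelled library and 0 lower, beside 16.0% higher and 10.3% lower among all genes. The 3 genes encode inhibitors. Serping1, which encodes the inhibitor of C1r, C1s and MASP proteases, had 1691 counts in the Ahi1-/- labelled library and 85 in WT, or 104.4 TPM in the labelled library and 5.12 in WT, and was 19.7-fold higher (15.9 to 24.8). By TPM, Serping1 was 2.61 times C1s1 in the Ahi1-/- labelled library and 0.073 times in WT. Clu, which encodes clusterin, an inhibitor of the terminal complex, had 181 counts in the labelled library and 64 in WT and was 2.80-fold higher (2.10 to 3.79). Cr1l, which encodes Crry, a convertase inhibitor of rodent cells, had 797 counts in the labelled library and 379 in WT and was 2.08-fold higher (1.84 to 2.36), an interval that reaches below 2-fold. Its log2 ratio of 1.06 came to 0.95 with total counts and 0.78 with chromosome medians subtracted, both under 2-fold. Within 2-fold lay Cfp (properdin, which stabilises the alternative convertase), C1rl (a C1r-like protease) and C1qbp (a mainly mitochondrial protein that binds C1q). Cfp had 75 counts in the labelled library and 130 in WT and was 1.75-fold lower (1.31 to 2.36). C1rl had 149 in the labelled library and 151 in WT. C1qbp had 1964 in the labelled library and 2351 in WT and was 1.21-fold lower (1.14 to 1.28).

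The other 36 genes of the list had at most 41 counts in either library. The C1q chains, which macrophages make, were near 0, with 5 counts in the labelled library and 8 in WT for C1qa, 4 in the labelled library and 7 in WT for C1qb, and 4 in the labelled library and 3 in WT for C1qc. The Ahi1-/- labelled library had no counts of Fcnb, a ficolin gene, against 39 in WT. With a floor of 3 counts Fcnb was 13.1-fold lower, and at least 10.2-fold lower at the limit of the 95% counting interval. C3ar1, the receptor for the C3 fragment C3a, had 22 counts in the labelled library and 1 in WT (log2 ratio 4.45, 1.82 to 9.81). Over the 28 genes of the list with at least 10 counts over both libraries, the median log2 ratio was 0.15.

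Beside the chondrocyte and red cell markers given above, markers of 4 other cell types were summed. All 11 macrophage and leukocyte markers were detected in both libraries and summed to 50.77 TPM in the Ahi1-/- labelled library and 28.36 TPM in WT. Of the 3 with at least 50 counts, 1 was higher, Lyz2 (315 counts in the labelled library and 96 in WT). Lyz2 was the largest part of both sums, with 34.2 TPM in the labelled library and 10.21 in WT, so the sums mainly follow it. Within 2-fold lay Cd68 (56 counts in the labelled library and 50 in WT) and Csf1r (76 in the labelled library and 109 in WT). Markers with fewer counts went in both directions. Ptprc, the pan-leukocyte marker, had 10 counts in the labelled library and 23 in WT and Adgre1, a macrophage marker, had 39 in the labelled library and 4 in WT. Of 6 hepatocyte markers 4 were in the table, with sums of 0.53 TPM in the Ahi1-/- labelled library and 0.21 TPM in WT, and Afp at 0 counts in the Ahi1-/- labelled library and Alb and Ttr at 0 in WT. The 5 endothelial markers summed to 1.39 TPM in the labelled library and 1.19 in WT. All 4 epithelial markers were higher, with sums of 39.44 TPM in the labelled library and 16.21 in WT. The part of these markers in the complement values was not tested.

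Cytokines, receptors and transcription factors known to control complement genes went in both directions. Of 23 listed, 22 were in the table and 18 had at least 50 counts, of which 4 were higher, 3 lower and 11 within 2-fold, beside 16.0% higher and 10.3% lower among all genes. Stat3 at 1.05, Irf2 at -1.01 and Nfkb1 at -1.07 on the log2 scale lie at the threshold, with intervals that reach within 2-fold. With chromosome medians subtracted they came to 0.93, -0.61 and -0.81, which ends these 3 calls, and with total counts Stat3 came to 0.94. Il6, a cytokine that induces C3 in many cells, had 382 counts in the Ahi1-/- labelled library and 146 in WT (2.59-fold higher). The related cytokine Lif had 596 counts in the labelled library and 170 in WT (3.47-fold higher), the interleukin 1 receptor Il1r1 4161 in the labelled library and 1585 in WT (2.60-fold), and Stat3, which acts below Il6, 5361 in the labelled library and 2558 in WT (2.08-fold). Lower were Irf1, an interferon-induced factor, with 587 counts in the labelled library and 1417 in WT (2.44-fold lower), Irf2 with 544 in the labelled library and 1086 in WT (2.01-fold) and the NF-kappaB subunit Nfkb1 with 2502 in the labelled library and 5191 in WT (2.09-fold). Cebpb, a C/EBP factor, had 4861 counts in the labelled library and 5303 in WT. Their part in the complement values was not tested.

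**Figure D3:**
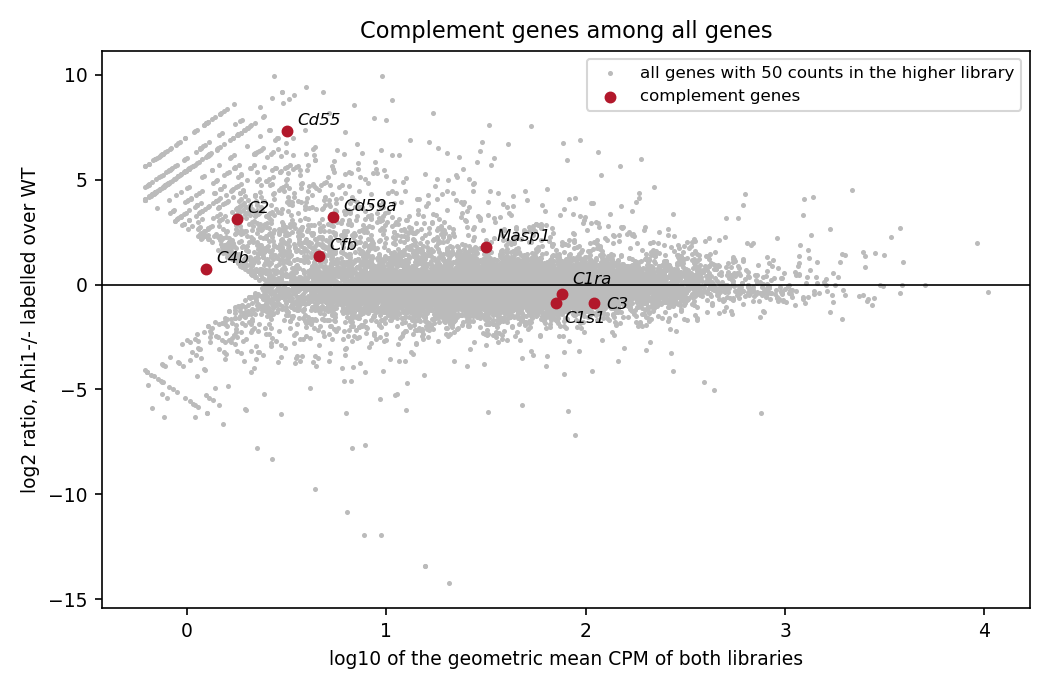
Log2 ratio, Ahi1-/- labelled library over WT, against the log10 geometric mean CPM of both libraries for 12075 genes whose larger count was 50 or more (grey; genes at 0 on 1 side are set to 3 counts) and the 9 complement genes (red). C3, C1s1 and C1ra lie among abundant genes just below 0, while Cd55 at 7.31 lies above 99.6% of the grey genes.

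For 5 of the 9 genes a close copy exists, between which the authors' counting could split reads, and the deposited counts of these 5 were fractional. Of the distinct stretches of 50 bases in GENCODE M21 transcripts of C1ra, 48.0% also occur in C1rb. The share was 34.6% for C4b in C4a, 21.8% for C1s1 in C1s2, 8.0% for Cd55 in Cd55b and 3.87% for Cd59a in Cd59b. The copies themselves had few counts. C1rb had 2.93 expected counts in the Ahi1-/- labelled library and 2.85 in WT, and Cd55b had 12.25 in the labelled library and 0 in WT. Summing each gene with its copy gave log2 ratios of 7.33 for Cd55 (6.11 to 8.96), 3.12 for Cd59a (2.63 to 3.63), -0.86 for C1s1 and -0.45 for C1ra. For C4b, whose copy held a similar number of counts, the sum was 49 counts in the Ahi1-/- labelled library and 41 in WT, a log2 ratio of 0.24 (-0.38 to 0.88). C4b is therefore uncertain as a single gene.

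The deposited levels of Cd55 and Cd59a also carried different transcript lengths in the 2 libraries. Counts per unit of TPM follow the effective length assigned to a gene. For Cd55 this was 28.4 in the Ahi1-/- labelled library and 57.6 in WT, a ratio of 0.51 relative to the median gene, or 0.48 to 0.53 given the rounding of TPM. For Cd59a it was 16.0 in the labelled library and 20.5 in WT, a ratio of 0.80. Of 10657 genes with at least 50 counts and 1 TPM in both libraries, the central 95% lay between 0.93 and 1.05, and 0.310% lay below Cd59a. Cd55 with 5 WT counts and Cd59a with 35 are not among these genes. The range therefore does not give the spread at their depth. C3, C4b, C1s1, C1ra, C2 and Masp1 lay between 0.985 and 1.01, and Cfb at 0.954. GENCODE M21 lists 5 Cd55 transcripts of 721 to 3133 bases and 3 Cd59a transcripts of 681 to 1806 bases. The log2 ratio of Cd55 was accordingly 7.31 in counts and 8.29 in TPM, and that of Cd59a 3.22 in counts and 3.58 in TPM. The WT length of Cd55 rests on 5 counts and that of Cd59a on 35, and whether isoform use differed was not tested.

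Position in the genome was set beside each ratio, since chromosome medians differed between the libraries. C2, Cfb and C4b lie in the class III region of the major histocompatibility complex on chromosome 17. Of the 10 nearest measured genes around C2, all had 50 counts, with a median log2 ratio of -0.52, 2 higher (Cfb itself and Slc44a4) and 1 lower (Zbtb12). Next to Cfb, Nelfe had a ratio of -0.62 and Skiv2l -0.50, against 1.35 for Cfb and 3.10 for C2. Around C4b, 8 neighbours with 50 counts lay between -0.91 and 0.07. C3 at -0.88 lay below its 4 neighbours with 50 counts, which lay between -0.14 and 3.50. C1s1 at -0.85 lay below its 6, between -0.69 and 0.22. C1ra at -0.46 lay among its 5, between -0.85 (C1s1 itself) and 0.22. Around Cd55 on chromosome 1, 4 neighbours with 50 counts lay between -1.42 and 0.64, and Cd59a on chromosome 2 had 5 between -0.30 and 0.45. Masp1 on chromosome 16 had neighbours in both directions, with 3 higher (St6gal1, Bcl6 and Lpp) and 1 lower (Rfc4) of 6. St6gal1, 1 step from Masp1, had 1.82 against 1.77 for Masp1, while Rfc4 had -1.97. In GENCODE M21, Masp1 overlaps Rtp4 (1094 counts in the labelled library and 2035 in WT) and C2 overlaps Zbtb12 (252 in the labelled library and 560 in WT) on the opposite strand, and Gm20547 spans both C2 and Cfb. Genes on the opposite strand that were not among the counted genes also overlap Cd55 (Gm16083), C1s1 (Gm16567) and Masp1 (Gm45338 and Gm49514). The sources used here do not state strand use, so reads from these overlaps cannot be told apart.

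**Figure D4:**
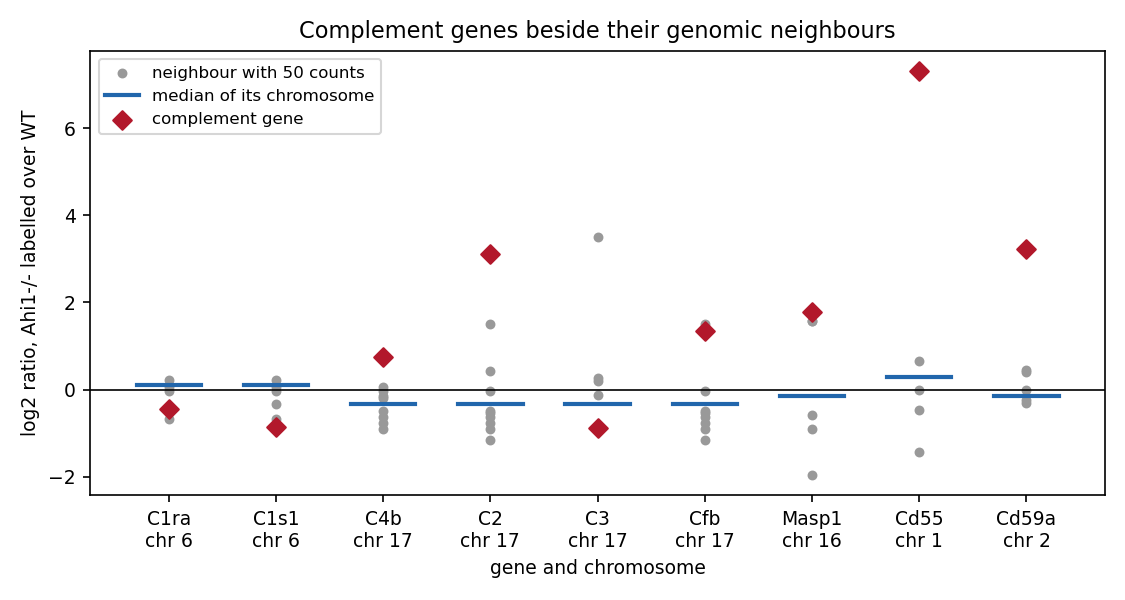
Log2 ratio, Ahi1-/- labelled library over WT, of each complement gene (red diamonds), of those of its 5 nearest measured genes per side that had 50 counts (grey points, other complement genes of the 9 left out) and the median of its chromosome (blue bars). C2 at 3.10 and Cd59a at 3.22 lie above all their plotted neighbours, and C1ra lies among its own.

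A second deposited table gives FPKM values for 3872 genes and lists 5 of the 9, namely C2, Cfb, Cd55, Cd59a and Masp1. Every gene there with values above 0 in both libraries was at least 2-fold apart, with a smallest absolute log2 ratio of 1.00. C3, C1s1, C1ra and C4b, which lay within 2-fold in counts, were not listed. Cd55 had 12.41 FPKM in the Ahi1-/- labelled library and 0.04 in WT, and Masp1 had 14.53 FPKM in the labelled library and 4.66 in WT. Both tables come from the same 2 libraries, so the second is no independent measurement. Of the wider list, 6 genes were in it, with Serping1 at 45.86 FPKM in the labelled library and 2.52 in WT.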

How the data were processed

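RNA was sequenced as 1 DNBSEQ library per genotype. The authors deposited expected counts (estimated reads per gene, many fractional) with TPM for 17260 genes, and FPKM for 3872, per the file headers. Tools in the submitters' processing notes are RSEM 1.2.12, HISAT2 2.0.4 and Bowtie2 2.2.5, with build mm8 and no roles. The sources used here do not state annotation, strand or filters. All 6 value columns were used.

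Expected counts were rounded and scaled with TMM (edgeR 4.0.16, R 4.3.3) over the whole table. Ratios carry exact Clopper-Pearson 95% intervals, and gene pairs exact conditional ones (Python 3.11.15, scipy 1.17.1). Zeros were set to 3 counts (0.150 CPM in the Ahi1-/- labelled library, 0.151 CPM in WT). The code was tested on simulated data. RefSeq GRCm38.p6 gave gene order for 17206 genes and promoters. GENCODE M21 gave transcripts.

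The members and lists were chosen with earlier results of these data known. Named were all 9 genes, listed complement genes with 50 counts, and listed regulators 2-fold apart. Masp2, the C1q chains, Fcnb, C3ar1, Cebpb, the marker genes and the neighbours given singly were named after their values were seen. Alternatives covered scaling, unit, rounding, minimum, fold, chromosome medians, the FPKM table and summed copies.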

Additional observations from a re-analysis of the deposited data

How the results depend on the processing

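The 9 complement genes kept the sign of their log2 ratio under all alternatives run, in 64 values, of which 58 stayed within the counting interval. The other 6 were C3, C1s1 and C1ra with total counts (-0.99, -0.97 and -0.57 on the log2 scale) and with chromosome medians subtracted (-0.56, -0.96 and -0.57). Counting intervals are wider for genes with few counts, which stay within them more easily. For C4b the interval includes 0, so its sign is not settled. All alternatives use the same 2 libraries. The median of the 9 ranged from 1.24 with total counts to 1.68 with chromosome medians subtracted. Total counts moved the median of all genes with 50 counts to -0.16, against -0.04.

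Calls depended on the fold and the minimum count. At 1.5-fold, 2 of the 9 (C3 and C1s1), 1 other listed complement gene and 2606 of all genes were lower. At 4-fold, 3 of the 9, 1 other listed complement gene and 1078 of all genes were higher, and 299 of all genes were lower. The 3 are C2, Cd55 and Cd59a, which reached 50 counts only in the labelled library. With 12 WT counts for C2 and 5 for Cd55, that minimum forced 4-fold for both, but not for Cd59a (35). Nothing is read from this count. With a minimum of 10 counts, 10 other listed complement genes were higher and 3 lower, beside 2741 higher and 1647 lower of all genes. Calls at this minimum can rest on few counts. Colec10, counted as higher, had 11 counts in the labelled library and 1 in WT, and C1s2, counted as lower, 4 in the labelled library and 12 in WT. With total counts or chromosome medians subtracted, 2 of the 3 higher listed genes kept their call and Cr1l lost it. With no minimum, 11 other listed complement genes were higher and 7 lower, and all genes numbered 3111 higher and 2063 lower. Summing copies, and the alternatives for Cr1l and the regulators given singly, were chosen after seeing the data. No paired analysis was possible because each genotype had 1 library, and for the same reason no library could be left out. Depth limits C4b and the WT values of Cd55 and C2.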
